A study of Mus musculus with 11 samples.

Results

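The windows described here are the 500-base stretches of the mouse genome that lie more than 50 kb and at most 200 kb from the transcription start site their authors assigned to them. They were taken from 4 deposited lists of windows that differed in a methylated DNA immunoprecipitation experiment on the suprachiasmatic nucleus (SCN), the hypothalamic nucleus that holds the master circadian clock. By the authors' distance column, 352 of the 1222 listed windows on nuclear chromosomes fall in this distance class, or 343 of 1165 when a window that stands in several lists is counted once. The class was cut by distance alone, but every window is in a list that its authors drew up as differing between light cycles, by criteria not given in the sources used here. Its difference is therefore a description, and the share of differing windows over the genome is not known.

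The mice were wild type C57BL/6Cr1, given as postnatal day 90. They were 6 weeks old when they were placed on light-dark cycles of 22, 24 or 26 h, stayed there for 6 weeks, and then spent 3 days in constant darkness. Brains were taken at circadian time 4, and a 250 µm slice through the middle of the SCN was cut into a ventral and a dorsal piece. The 6 groups are the 3 cycle lengths in each piece, with 2 samples a group and 1 in the dorsal 24 h group. The SCN part of a column was taken from the name of its list. The files hold 1 column for each group, how the samples were combined is not stated, and no spread between samples can be given. The antibody captures fragments of about 300 bp that carry methylated cytosine, so a window's level depends on how many methylated CpG it holds as well as on how fully each is methylated. Levels are in RPKM, the reads of a window corrected for window size and for the depth of the column. Column depths recovered from the values ran from 4580000 reads (dorsal 24 h) to 9430000 reads (ventral 26 h). Each fold below has an exact Clopper-Pearson 95% interval from the reads of its 2 columns, which covers counting error only. It takes each read as a separate molecule, although PCR copies of a molecule could not be told apart. The labelled tissue cannot be checked against marker genes in these DNA data.

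In mammals cytosine is methylated mostly at CpG dinucleotides, and most CpG outside promoter islands are methylated. Much of the CpG-dense DNA far from genes belongs to retrotransposons, which copy themselves through RNA. Mouse LINE-1 (L1) elements carry a promoter made of tandem units rich in CpG, followed by coding sequence poor in CpG. LTR elements carry CpG-rich terminal repeats. Methylation of both promoters is known to keep the elements silent. Telomeres are arrays of a short unit that holds no CpG.

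The sequences below carry the patterns described in the rest of the text. Each is the 300-base stretch of a window that holds the most CpG, read from the mm9 genome on the forward strand, in lower case with CpG in capitals. The first pair stands for the CpG-dense L1-type windows that were lower at 24 h than at 22 h in the ventral SCN. Named by the nearest start site, they are the Poteg window (chr8:28671501-28671800, between genes) and the Irs4 window (chrX:138333001-138333300, between genes).
Poteg: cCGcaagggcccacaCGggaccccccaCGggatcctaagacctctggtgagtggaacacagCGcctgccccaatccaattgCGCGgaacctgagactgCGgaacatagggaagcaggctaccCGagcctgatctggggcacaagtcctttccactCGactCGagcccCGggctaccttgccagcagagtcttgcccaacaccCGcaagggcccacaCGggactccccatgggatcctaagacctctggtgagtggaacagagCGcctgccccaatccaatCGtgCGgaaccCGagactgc
Irs4: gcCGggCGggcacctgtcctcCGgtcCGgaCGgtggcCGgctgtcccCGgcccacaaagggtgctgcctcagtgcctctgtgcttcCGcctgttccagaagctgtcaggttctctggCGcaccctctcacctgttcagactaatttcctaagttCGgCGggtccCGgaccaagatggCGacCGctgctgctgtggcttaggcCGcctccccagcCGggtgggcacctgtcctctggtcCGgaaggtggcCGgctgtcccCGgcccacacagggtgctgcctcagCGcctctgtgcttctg
The Poteg stretch holds 17 CpG and the Irs4 stretch 20.

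The second pair belongs to a CpG-poor family of high copy number, in part near L1-type frames. Against 22 h, its listed ventral windows were higher at 24 h. Its listed dorsal windows, which are different ones, were lower at 24 h. The 4930402F11Rik stretch (chr7:76518143-76518442, between genes) is from the ventral list and the Chodl stretch (chr16:78989195-78989494, in an intron of Tmprss15) from the dorsal list.
4930402F11Rik: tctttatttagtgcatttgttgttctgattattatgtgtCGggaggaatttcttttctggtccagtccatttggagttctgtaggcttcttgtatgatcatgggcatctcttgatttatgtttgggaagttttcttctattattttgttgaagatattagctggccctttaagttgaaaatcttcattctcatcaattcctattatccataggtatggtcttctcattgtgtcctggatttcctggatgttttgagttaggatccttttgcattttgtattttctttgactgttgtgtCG
Chodl: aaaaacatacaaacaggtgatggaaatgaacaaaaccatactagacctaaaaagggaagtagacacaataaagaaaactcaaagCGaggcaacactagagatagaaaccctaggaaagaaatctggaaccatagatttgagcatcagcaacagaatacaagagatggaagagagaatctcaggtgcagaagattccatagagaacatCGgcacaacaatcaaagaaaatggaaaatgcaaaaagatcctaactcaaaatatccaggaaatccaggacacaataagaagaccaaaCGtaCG
They hold 2 and 4 CpG, and their windows align to each other over 157 bp at 93.0% identity on opposite strands.

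The next sequence shows a tandem repeat with almost no CpG whose windows were lower at dorsal 24 h. The 1700080N15Rik stretch (chr2:3882001-3882300, between genes) repeats a unit of 42 bases and holds 0 CpG.
1700080N15Rik: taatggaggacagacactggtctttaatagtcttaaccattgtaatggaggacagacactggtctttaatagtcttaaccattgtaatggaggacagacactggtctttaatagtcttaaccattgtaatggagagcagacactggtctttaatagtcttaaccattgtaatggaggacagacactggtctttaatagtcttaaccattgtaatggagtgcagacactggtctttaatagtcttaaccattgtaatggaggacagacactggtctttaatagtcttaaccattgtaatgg

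The last 3 are mostly single-copy windows, again with CpG in capitals. The Lrrc6 stretch (chr15:66277049-66277348, intron of Lrrc6) was higher at ventral 24 h than 22 h. The Eea1 stretch (chr10:95540001-95540300, between genes) was lower at 24 h in a ventral and a dorsal list, and the Ndst4 stretch (chr3:124931001-124931300, between genes) lower at dorsal 24 h than 26 h.
Lrrc6: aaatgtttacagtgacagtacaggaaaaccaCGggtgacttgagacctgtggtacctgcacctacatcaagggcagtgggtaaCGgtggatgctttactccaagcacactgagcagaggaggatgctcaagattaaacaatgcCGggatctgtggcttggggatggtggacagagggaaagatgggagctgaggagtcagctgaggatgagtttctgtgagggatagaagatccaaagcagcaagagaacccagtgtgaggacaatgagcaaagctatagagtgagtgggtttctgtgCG
Eea1: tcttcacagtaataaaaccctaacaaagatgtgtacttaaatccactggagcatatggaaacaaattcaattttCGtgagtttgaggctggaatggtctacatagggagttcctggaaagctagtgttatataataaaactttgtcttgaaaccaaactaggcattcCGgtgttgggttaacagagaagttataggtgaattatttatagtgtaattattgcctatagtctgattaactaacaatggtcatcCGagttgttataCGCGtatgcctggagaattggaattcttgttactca
Ndst4: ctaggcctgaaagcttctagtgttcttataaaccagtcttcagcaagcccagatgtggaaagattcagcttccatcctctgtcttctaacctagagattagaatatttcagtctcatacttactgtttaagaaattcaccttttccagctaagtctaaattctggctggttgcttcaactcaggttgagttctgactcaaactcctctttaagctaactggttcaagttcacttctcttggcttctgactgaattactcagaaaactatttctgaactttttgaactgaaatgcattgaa
They hold 4, 5 and 0 CpG in this order.

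The ventral comparison of 24 h with 22 h held most of the windows, 270 of 352. Of these, 214 were lower at 24 h (79.3%) and 56 were higher, beside 75.7% lower among all nuclear windows of that list. The share lower was 64.6% of the windows within 50 kb of a start site and 87.1% of those beyond 200 kb, and within the class it went from 70.5% of 139 windows at 50 to 100 kb through 82.8% of 64 at 100 to 150 kb to 94.0% of 67 at 150 to 200 kb. A difference of at least 4-fold was found in 192 windows (71.1%), beside 72.1% of all nuclear windows of the list, a share near that of the list. The lower windows had a median of 2.68 RPKM at 24 h and 15.5 RPKM at 22 h, and the higher ones 11.1 and 3.06 RPKM. Counting intervals left 267 of the 270 ratios clear of 1, which the listing of windows by their difference favours.

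**Figure D1:**
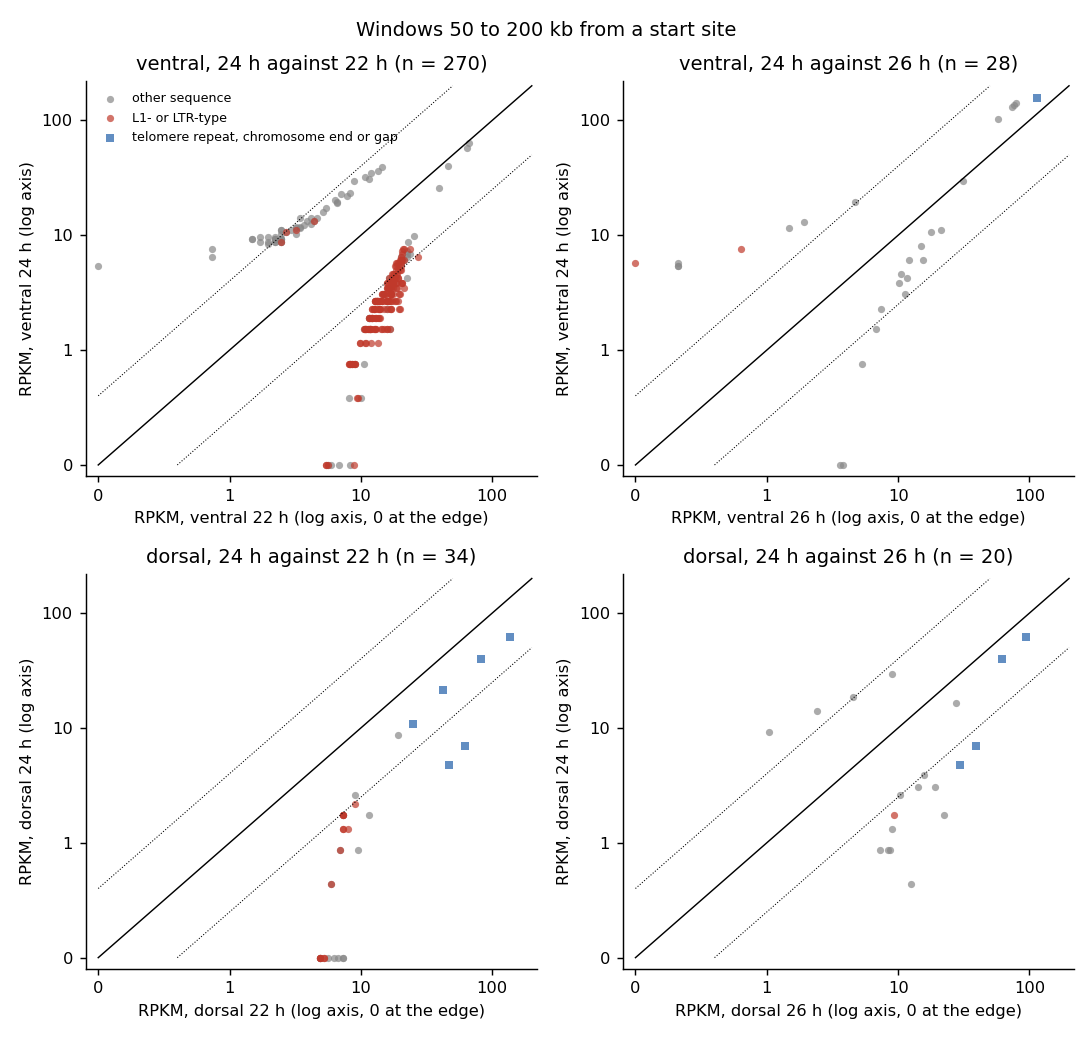
RPKM of each window at 24 h (vertical, log axis) against the other cycle length (horizontal, log axis), 1 panel for each list; values of 0 are drawn at the edge, the solid line marks equal levels and the dotted lines a 4-fold difference. In the ventral 22 h panel the L1- or LTR-type windows (red) lie below the line in 179 of 183 cases; in the dorsal 22 h panel all 34 windows lie below it.

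The 2 directions of the ventral 22 h list were different kinds of sequence. The 214 windows lower at 24 h had a median of 29 CpG and a GC content of 62.0%, and 183 of them (85.5%) held at least 20 CpG. Over the genome, a 500-base window at this distance from a GENCODE start holds a median of 3 CpG, and 0.429% of such windows hold at least 20. The 56 higher windows had a median of 4.5 CpG, with 8 at 20 or more. By CpG number, 1 of 29 windows with 0 to 4 CpG was lower at 24 h, 2 of 13 with 5 to 9, 28 of 37 with 10 to 19, 84 of 90 with 20 to 29 and 99 of 101 with 30 or more. Spearman's rho with CpG number was 0.62 for the levels at 22 h and -0.21 for those at 24 h, across 270 windows. This is a description across listed windows, which share both columns and in part their sequence. Both rhos mix windows listed as lower and as higher at 24 h, and most windows with 0 to 9 CpG were higher. Median levels at 24 h were 9.18 and 10.3 RPKM with 0 to 4 and 5 to 9 CpG. They were 1.91 and 2.68 RPKM with 10 to 19 and 20 to 29 CpG. How a level depends on CpG number is therefore not read from the rhos. The median RPKM of the windows with 30 or more CpG was 16.9 at 22 h and 3.06 at 24 h.

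**Figure D2:**
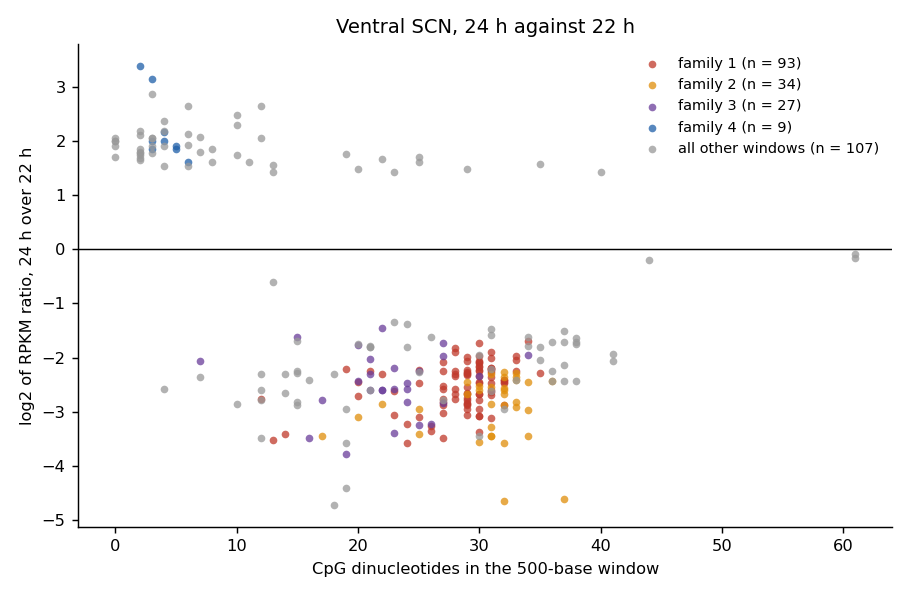
Ventral SCN: log2 of the RPKM ratio, 24 h over 22 h, against the number of CpG in each of the 270 windows, coloured by family of shared sequence; columns with 0 reads were set to 3 reads. Windows with 30 or more CpG lie below 0 in 99 of 101 cases, and the CpG-poor family 4 lies above 0.

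Most of the lower windows had retrotransposon features, also outside the distance class. Of the 214, 179 (83.6%) lay in or near an L1- or LTR-type element: 127 within 8000 bp of an L1-type reverse transcriptase frame of at least 600 codons, 40 near an LTR-type one, and 135 in tandem units of about the length of an L1 promoter monomer. Of the 56 higher windows 4 did. Among windows of this list lower at 24 h the share was 75.5% within 50 kb of a start site and 89.8% beyond 200 kb, and 20 or more CpG were found in 74.5% and 83.7%, so the trait is not particular to the distance. The number of copies in the genome differed as well, with a median of 1056 genomic copies of a window's 31-base words among the lower windows against 2.75 among the higher ones. Mostly unique windows, in which at least 50% of these words occur once, were 8 of 214 and 23 of 56. Among the 31 mostly unique windows the direction was the opposite of the class as a whole, 8 lower and 23 higher at 24 h. Reads of a window with many copies can come from any of them, and how such reads were placed is not given in the sources used here.

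A window joined a family where it aligned to at least 1 of its windows at 90% identity or more over 200 bp or more. Of the 343 windows, 244 fell into 22 such families and 99 stood alone, and the 5 largest families held 189. Family 1 has 94 windows on 19 chromosomes, and its kind is the Poteg sequence above. In the ventral 22 h list 93 of its windows ran from 0 to 5.74 RPKM at 24 h and from 5.39 to 21.3 RPKM at 22 h, with medians of 2.68 and 16.2. The 2 columns overlapped at 2 windows, each with 5.39 RPKM at 22 h. These windows were listed because they differ, so the values describe the listed copies and not the family. Family 2, the kind of the Irs4 sequence, had 34 windows on 14 chromosomes, at most 3.82 RPKM at 24 h and at least 8.08 RPKM at 22 h. Its columns thus did not overlap, which the listing of windows by their difference favours. Family 5, with 10 windows of the same promoter kind and a median of 36 CpG, had medians of 3.25 RPKM at 24 h and 15.7 RPKM at 22 h.

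The listed windows of families with LTR-type frames nearby were lower at 24 h as well. In family 3, where 23 of 27 ventral windows had an LTR-type frame, the medians were 2.68 RPKM at 24 h and 13.7 RPKM at 22 h. Family 6 (9 windows, a median of 36 CpG, 4 with an LTR-type frame) had medians of 6.12 and 22.3 RPKM. Family 3 also reached the other lists with single windows. At Nxnl2 in the dorsal 22 h list it held 1.75 against 7.34 RPKM, lower at 24 h. At D16Ertd519e in the dorsal 26 h list it held 1.75 against 9.36 RPKM, also lower at 24 h. At Ncam2 in the ventral 26 h list it held 7.65 against 0.64 RPKM, higher at 24 h. The Ncam2 window had an L1-type frame nearby and no LTR-type one.

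Family 4, CpG-poor sequence of high copy number, has 21 windows on 13 chromosomes and a median of 4 CpG. An L1-type frame lay near 3 of its 9 ventral and 9 of its 12 dorsal windows. Its windows in the ventral 22 h list were all higher at 24 h and those in the dorsal 22 h list all lower. In the ventral 22 h list its 9 windows held 6.50 to 13.4 RPKM at 24 h and 0.73 to 4.41 RPKM at 22 h. In the dorsal 22 h list 12 other windows of the family held 0 to 2.62 RPKM at 24 h and 4.89 to 9.09 RPKM at 22 h. In neither list did the 2 columns of the family overlap, which the listing of windows by their difference favours. The window nearest 4930402F11Rik had 7.65 RPKM at ventral 24 h and 0.73 RPKM at 22 h (10.4-fold, 3.09 to 54.7). The window nearest Chodl, in an intron of Tmprss15, had 0.44 RPKM at dorsal 24 h and 5.94 RPKM at 22 h (13.6-fold, 2.13 to 569). No window of the family was in both lists, so these are different windows, each listed because it differs. How the family as a whole differed between the SCN parts was not tested.

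**Figure D3:**
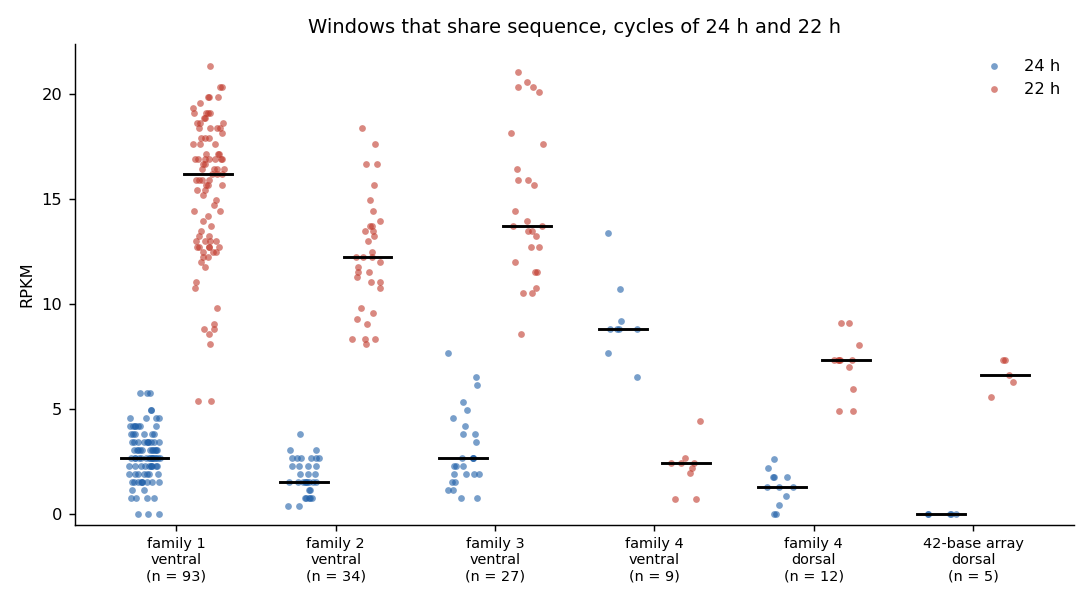
RPKM at 24 h (blue) and 22 h (red) of windows that share sequence; points are windows, black bars medians, and n counts windows of 1 list. Only windows listed because they differ are drawn. Those of families 1 to 3 are lower at 24 h in the ventral SCN. Those of family 4 are higher at 24 h in the ventral list and lower in the dorsal list, which hold different windows of the family.

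The largest single differences of the ventral 22 h list rested on few reads. At Pgk2 (chromosome 17, 67.3 kb from the start of this testis glycolytic enzyme gene) the window had 0.38 RPKM at 24 h and 10.04 RPKM at 22 h, 26.3-fold (4.45 to 1062) lower. Irs4, an insulin receptor substrate gene on X, had 0.38 and 9.55 RPKM in its window (25.0-fold, 4.23 to 1011), and the Cox7b2 window 0.38 and 9.30 RPKM. The value of 0.38 RPKM is 1 read, and in 8 further windows no read was found at 24 h. The longest run of neighbouring windows was 5, over 2.5 kb at 31863001 to 31865500 on chromosome 4, 185.8 to 187.8 kb from the start of Map3k7. Its windows held 2.68 to 4.59 RPKM at 24 h and 15.9 to 21.3 RPKM at 22 h, all lower at 24 h by 4.11- to 6.19-fold, all of family 1. On X lay 35 of the 270 windows (13.0%), 34 of them lower at 24 h; the share on X was 6.33% within 50 kb and 8.89% beyond 200 kb in the same list.

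The windows higher at ventral 24 h than 22 h were largely tandem or dinucleotide repeats, or single-copy introns. Short tandem repeats made up 28 of the 56, and 13 were at least 40% CA or TG units. Their levels at 24 h ran from 5.35 to 39.0 RPKM and at 22 h from 0 to 14.4 RPKM. The Lrrc6 window, in an intron of this gene for a protein of motile cilia and with every 31-base word unique, had 9.18 RPKM at 24 h and 1.47 RPKM at 22 h (6.25-fold, 2.49 to 18.7). The Mir204 window, also unique and in an intron of the ion channel gene Trpm3, had 9.56 and 1.96 RPKM (4.88-fold, 2.13 to 12.5). The window named for Ppp2r1b, in an intron of the kinase gene Sik2, had 5.35 RPKM at 24 h and 0 reads at 22 h. With 0 reads set to 3 it was 7.29-fold higher at 24 h, and the lower 95% limit from the counts of both columns was 5.18-fold. In 2 neighbouring CpG-dense windows near Mir574 the level was 22.9 and 32.1 RPKM at 24 h and 7.10 and 10.8 RPKM at 22 h. A run of 3 windows near Esp38 on chromosome 17, with 44 to 61 CpG, had RPKM ratios near 1: 40.2, 56.97 and 63.1 RPKM at 24 h against 46.3, 64.1 and 66.8 at 22 h, all with intervals of the fold that included 1. The authors' deposited table gives log2 fold changes of -0.80, -0.76 and -0.63 for them. Whether they are ribosomal DNA, which has many copies outside the assembly, was not tested, so their RPKM may sum over copies.

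The ventral comparison of 24 h with 26 h had 28 windows, 15 lower and 13 higher at 24 h (53.6% lower), beside 71.1% lower among all nuclear windows of the list. The share lower was 71.4% (15 of 21) when distance was taken to the nearest GENCODE start, 47.6% when neighbouring windows were merged and 36.4% at 50 to 100 kb, so neither the majority nor the gap to the list is stable. At least 4-fold apart by RPKM were 10 (35.7%), beside 23.9%, of which 8 were higher at 24 h. In this list log2 RPKM ratios lay above the authors' log2 fold changes by a median of 0.55, so this split depends on the scaling. Among the 12 windows for which the authors' deposited table gives a p under 1e-05, 0 were at least 4-fold apart by RPKM. By the authors' own log2 fold change, windows near Eea1 (-2.45), 2810429I04Rik (-2.09) and Gpm6a (-2.01) among them pass 4-fold, all lower at 24 h. Only 2 of the 28 had a retrotransposon feature and 14 were mostly unique. In this class windows in genes were on the higher side: 8 of the 13 higher windows and 1 of the 15 lower ones lay in an intron or exon. Within 50 kb of a start site the same list leaned the other way. There 20 of 36 higher windows and 19 of 123 lower ones lay between genes. At Col5a1, a fibrillar collagen gene, an exonic window had 5.74 RPKM at 24 h and 0.21 RPKM at 26 h, 27.1-fold (4.16 to 1139). An intronic window of Frmd4a, a scaffold protein of cell polarity, had 5.35 and 0.21 RPKM (25.3-fold, 3.84 to 1068), as had one of the kinase gene Alpk1. In these the value of 0.21 RPKM is 1 read. Better covered was a pair of neighbouring windows in an intron of Spag9, a scaffold of JNK signalling: 13.0 and 19.5 RPKM at 24 h against 1.91 and 4.66 RPKM at 26 h, 6.81-fold (3.20 to 16.2) and 4.18-fold (2.49 to 7.24).

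A second kind of window in this list had very high levels in both columns and a ratio near 1.8. The exonic Chl1 window had 135.0 RPKM at 24 h and 75.9 RPKM at 26 h (1.78-fold, 1.53 to 2.07), an intronic window of Mdga2 102.1 and 57.5 RPKM (1.78-fold), and a pair near Rab10os on chromosome 12 had 142.2 and 130.4 against 79.3 and 73.8 RPKM. Chl1 and Mdga2 encode neural adhesion proteins. Despite its level the Chl1 window holds only 5 CpG, and the Rab10os windows hold 6 to 7. Beyond 200 kb from a start site the 9 higher windows of this list had a median of 173.6 RPKM at 24 h and 94.8 RPKM at 26 h, so windows of this kind were not limited to the class. On the lower side, 4 windows near Gpm6a on chromosome 8, of which 3 are neighbours at 56205001 to 56206500 and which lie 2566 to 9066 bp from an assembly gap, had 3.82 to 8.03 RPKM at 24 h and 10.2 to 15.1 RPKM at 26 h (1.88- to 2.66-fold). Gpm6a encodes a neuronal membrane glycoprotein.

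In the dorsal comparison of 24 h with 22 h all 34 windows were lower at 24 h, or 100%, beside 93.1% lower among all nuclear windows of that list. At least 4-fold apart were 23 (67.6%), beside 53.4%. The medians were 1.09 RPKM at 24 h and 7.34 RPKM at 22 h, and 12 windows held no read at 24 h. In the 14 windows with a p under 1e-05 in the authors' deposited table the medians were 3.28 and 15.4 RPKM. Unlike the ventral windows lower at 24 h, these were CpG-poor, with a median of 3.5 CpG, and 1 of 34 held 20 or more. By sequence they fall into 12 windows of family 4, 5 of the 42-base array, 6 of telomere repeat or at chromosome ends or gaps, and 11 others. The dorsal 24 h group had 1 sample and its column the fewest reads of the 6. Whether sample or cycle length lies behind the differences cannot be told apart.

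The 42-base array lies at 3882001 to 3885500 on chromosome 2, between genes, 179.9 to 176.9 kb from 1700080N15Rik. Of the stretch 5 windows were listed, each with 0 reads at dorsal 24 h and 5.59 to 7.34 RPKM at 22 h. Over the 5 windows, 0 reads stood against 95. Neighbouring windows may share fragments of about 300 bp, so the 95 need not be separate counts. Among the 11 other windows, the window named for Mir6372, in an intron of 5730522E02Rik and nearly all unique, had 0.44 RPKM at 24 h and 5.94 RPKM at 22 h (13.6-fold, 2.13 to 569). The Six3os1 window, near the antisense transcript of the forebrain transcription factor gene Six3, had 0.87 and 6.99 RPKM (8.01-fold, 1.95 to 70.7).

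Windows of telomere repeat were lower at dorsal 24 h in both dorsal lists. The telomere unit and its reverse complement covered 87.6% of the Tmx3 window at 90771501 to 90772000 on chromosome 18, which ends 31 bp from the chromosome end. It had 62.4 RPKM at 24 h, 137.0 RPKM at 22 h and 94.3 RPKM at 26 h in the dorsal SCN, which is 2.20-fold (1.81 to 2.68) and 1.51-fold (1.23 to 1.86) lower at 24 h. The G530011O06Rik window on X, 66.0% telomere unit and 7 bp from a gap, had 40.2, 82.5 and 61.4 RPKM (2.05-fold, 1.61 to 2.64, and 1.53-fold, 1.18 to 1.99). In both windows the order was 24 h, 26 h, 22 h from low to high. The last windows of chromosomes 11 and 5, named for Ptchd3 and Rfc3, were 57.3% and 51.0% telomere unit. In the 22 h list they had 21.4 against 42.3 RPKM and 10.9 against 24.8 RPKM. Both hold fewer than 500 known bases, while RPKM was scaled to 500 bases. The next windows of Tmx3 and G530011O06Rik hold only 31 and 6 known bases, although RPKM was scaled to 500 bases there too. They had 6.98 and 4.80 RPKM at 24 h, 61.9 and 47.2 RPKM at 22 h and 38.8 and 29.5 RPKM at 26 h. Their folds of 8.86 and 9.83 against 22 h were thus larger than those of the full neighbours. All 6 hold at most 1 CpG.

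**Figure D4:**
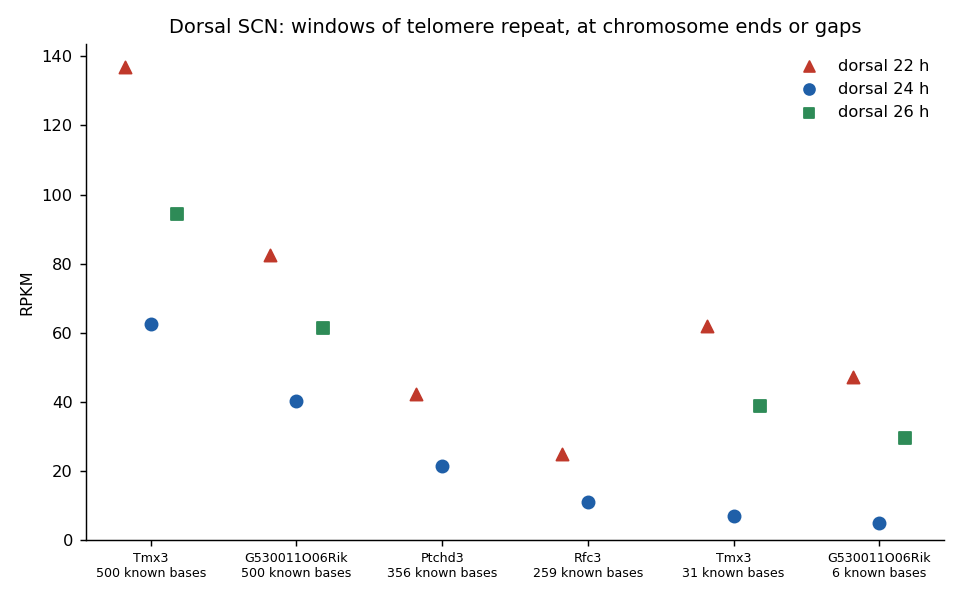
Dorsal SCN: RPKM of the 6 windows of telomere repeat, at chromosome ends or at gaps, named by the nearest start site with the number of known bases in the window, at 22 h (triangles), 24 h (circles) and 26 h (squares, where the window was in that list). Each window is lowest at 24 h.

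In the ventral SCN the Tmx3 window of telomere repeat was in the 26 h list with the opposite sign, 155.6 RPKM at 24 h and 115.1 RPKM at 26 h, 1.35-fold (1.19 to 1.54) higher at 24 h. The intervals of the ventral and dorsal ratios do not overlap, but they hold counting error only.

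The dorsal comparison of 24 h with 26 h had 20 windows, 16 lower and 4 higher at 24 h (80.0% lower), beside 78.5% among all nuclear windows of the list. At least 4-fold apart were 14 (70.0%), beside 73.4%. The share was thus near that of the list in both respects. Besides 4 windows of telomere repeat or at an end or gap, 10 of the other 16 windows were mostly unique. The Ndst4 window, upstream of this heparan sulphate enzyme gene, had 0.44 RPKM at 24 h and 12.5 RPKM at 26 h (28.6-fold, 4.81 to 1160); its 24 h value is 1 read, and it holds 0 CpG. A pair in an intron of Ano2, a calcium-activated chloride channel, had 3.06 RPKM in each window at 24 h and 19.1 and 14.2 RPKM at 26 h (6.24-fold, 2.83 to 16.2, and 4.65-fold, 2.07 to 12.3). A pair near Pou4f1, a sensory neuron transcription factor, had 2.62 and 3.93 against 10.4 and 15.6 RPKM, 3.97-fold lower in each. Both pairs were lower at 24 h in each of their windows. The 4 higher windows were repeats or introns: Knop1 (9.17 against 1.04 RPKM), Gm597 (13.97 against 2.43), Tshz2 (18.8 against 4.51) and Kit (29.7 against 9.01).

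Of the 343 windows, 8 were in more than one list. Lists of the same SCN part share their 24 h column, so only pairs across parts hold separate columns. The Kit window, 85.7 kb from the gene of this receptor tyrosine kinase, was higher at 24 h both times: 20.3 against 6.36 RPKM in the ventral SCN at 22 h (3.18-fold, 1.96 to 5.31) and 29.7 against 9.01 RPKM in the dorsal SCN at 26 h (3.29-fold, 2.07 to 5.39). The Gm597 window was likewise higher, 16.1 against 5.14 RPKM and 13.97 against 2.43 RPKM in the same lists. It lies in an exon of Gm17684, 0.217 kb from the nearest GENCODE start. The Eea1 window, 137.0 kb from this early endosome gene, was lower at 24 h both times, 11.1 against 21.2 RPKM in the ventral SCN at 26 h and 0.87 against 9.44 RPKM in the dorsal SCN at 22 h. Kit, Gm597 and Eea1 thus kept 1 direction across SCN parts, against different cycle lengths. In the dorsal SCN the Gm4736 window had 1.75 RPKM at 24 h, 11.5 RPKM at 22 h and 22.5 RPKM at 26 h. The other 4 are the Tmx3 and G530011O06Rik windows above, of which 1 was in 3 lists.

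Genes with a known role in the clock, in neurons or in DNA methylation were looked up in 10 lists with 456 genes. Of these, 18 (3.95%) named a window, beside 209 of all 22238 protein-coding GENCODE genes (0.940%). The gene lists were drawn up with earlier results in view, so nothing is read from that difference. The 18 genes named 22 windows, 15 lower (68.2%) and 7 higher at 24 h, beside 79.3% lower over all 352 windows. A total of 16 had a retrotransposon feature, and 4 lay inside the gene that named them. In the whole ventral 22 h list of this class, 179 of 214 lower and 4 of 56 higher windows had such a feature. Inside the naming gene lay 52 of those 270, so neither count is read as a trait of these genes. Of 30 circadian clock genes 1 was named: Nr1d2, which encodes the repressor REV-ERBβ, had a window with an LTR-type frame nearby at 1.53 RPKM at 24 h and 10.5 RPKM at 22 h in the ventral SCN (6.88-fold, 2.50 to 26.4), 93.9 kb from its start and between genes. Of 48 SCN neuropeptide and receptor genes 1 was named: Avpr1a, a vasopressin receptor, with 11.5 RPKM at ventral 24 h and 1.48 RPKM at 26 h (7.73-fold, 3.33 to 20.9) in a window between genes, 140.8 kb from its start. Of 31 GABA genes, the receptor subunit gene Gabrq had 3.82 against 20.6 RPKM in the ventral SCN at 22 h (5.38-fold). Of 69 ion channel and calcium genes, Kcnj6, a potassium channel, had 1.53 against 11.8 RPKM in the ventral SCN at 22 h. Nalcn, a sodium leak channel, had 5.74 RPKM at ventral 24 h against 0 reads at 26 h. It was 9.02-fold higher with 0 reads set to 3, with a lower 95% limit of 6.47-fold. The Nalcn window lies in an intron of the gene and belongs to family 1.

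Of 85 neural adhesion genes, the longest list, 7 were named, with 10 windows, of which 7 were lower and 3 higher at 24 h. Ncam2, a neural cell adhesion molecule, had 1 window in each ventral list, 1.53 against 16.7 RPKM at 22 h (10.9-fold lower, 4.06 to 41.1) and 7.65 against 0.64 RPKM at 26 h (12.02-fold higher, 3.57 to 63.2). They are 2 windows of different families, 164.7 and 172.2 kb from the start, and not 1 site with opposite signs. Each had an L1-type frame within 8000 bp. The 2 windows nearest Flrt3 lie in an intron of Macrod2. Sdk1 was higher at ventral 24 h, 8.41 against 1.96 RPKM at 22 h. Of 56 developmental transcription factor genes 5 were named, among them Sim1, needed for neurons of the hypothalamus, with 2 neighbouring family 1 windows (1.15 and 3.82 against 11.02 and 17.1 RPKM, ventral 22 h), and Tshz2, higher in the dorsal 26 h list. Of 34 imprinted genes Peg10 was named, with 0 reads at ventral 24 h and 5.63 RPKM at 22 h. It was 4.91-fold lower with 0 reads set to 3, with a lower 95% limit of 3.68-fold. No axon guidance, glutamate receptor or DNA methylation machinery gene (42, 42 and 22 genes) was named in this distance class.

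By the GENCODE M1 annotation, 240 of the 352 windows lay between genes, 107 in introns and 5 in exons. A window in a gene was in the one that named it in 52 of 93 cases in the ventral 22 h list, 8 of 9 in the ventral 26 h list, 1 of 4 in the dorsal 22 h list and 3 of 6 in the dorsal 26 h list. An annotated transcript start of any kind lay within 50 kb of 157 of the 352. For example, the Irs4 window is 173.5 kb from the start that named it and 3.75 kb from the nearest GENCODE start. Just inside the limits stood Lmf1 and Epb4.1l2 (50.13 and 50.58 kb, 9.18 against 2.45 and 30.97 against 11.5 RPKM) and Gnaz and Gm10486 (198.7 and 197.3 kb, 1.91 against 12.2 and 4.21 against 17.9 RPKM). Just outside stood Gm16404 and Myo7a (49.98 and 49.51 kb, 4.21 against 16.7 and 0.87 against 7.34 RPKM) and Gm20356 and Gm3985 (200.1 and 201.8 kb, 0.76 against 9.79 and 2.68 against 15.4 RPKM). In each pair the 24 h value comes first; the Myo7a window is from the dorsal 22 h list and the others from the ventral 22 h list.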

How the data were processed

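Methylated DNA was captured with an antibody and sequenced. Reads were aligned with BWA to mm9, per the submitters' processing notes. The authors deposited 4 lists of 500-base windows with 1 RPKM column for each group, a further deposited column named counts that holds a rescaled score and was not used, and the authors' log2 fold change and p-value from a count model, both per the file headers. Within the class these p-values reach 9.45e-06 in the ventral 22 h list and 9.89e-05 in the ventral 26 h list, so list sizes cannot be compared. The rest of the genome was not analysed here.

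Each column's low RPKM values were whole multiples of 1 step within 0.01, which gave reads and depth. The recovery and the Clopper-Pearson intervals were tested on simulated data. No test across groups was made, because each group is 1 column. Columns with 0 reads were set to 3 reads for folds. Sequence came from the mm9 genome and annotation from GENCODE M1, and alignments from BLAST 2.17.0. No repeat annotation was used: an L1- or LTR-type frame is a reading frame without stops that holds the reverse transcriptase active-site motif of that class, and tandem units were found from words that recur nearby. Python 3.11.15 with numpy 2.4.6, pandas 2.3.3 and scipy 1.17.1 was used. Named windows are, for each list and direction, the 10 with the largest ratio, those whose nearest gene is in a gene list, those in several lists, the longest runs, and the 2 nearest each distance limit. Others were chosen after their values were seen, such as the windows of telomere repeat, those of high level in the ventral 26 h list, and Mir574, Esp38 and Pou4f1. The members and lists were chosen with earlier results of these data known.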

Additional observations from a re-analysis of the deposited data

Results flagged for a closer look

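The window of telomere repeat nearest Tmx3 on chromosome 18 stood out because its difference between 24 h and 26 h had opposite signs in the 2 parts of the SCN. The ratio of RPKM, 24 h over 26 h, was 1.35 (95% interval 1.19 to 1.54) in the ventral and 0.662 (0.537 to 0.814) in the dorsal SCN. The difference between the parts was not tested, since each group is 1 column.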

How the results depend on the processing

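No paired analysis was possible because each group has 1 column in the files. Over 17 shares and medians, 118 recomputed values were compared with the reported ones, and 101 stayed within an exact 95% interval of the reported one, which treats windows as independent although many share sequence. The direction of every window was the same by the authors' log2 fold change, although log2 RPKM ratios differed from it by a median of -0.09, 0.55, 0.47 and 0.26 in the ventral 22 h, ventral 26 h, dorsal 22 h and dorsal 26 h lists. A minimum of 10 reads removed no window and is not counted. All 34 windows of the dorsal 22 h list were lower at 24 h. Subsets of them and merging could thus not move that share, and these values are counted. Merging neighbouring windows, adding 0.5 reads, a frame of 400 codons, and leaving out telomere, end and gap windows (chosen after seeing the data) moved no value past its interval, although merging turned the majority of the ventral 26 h list from 53.6% to 47.6% lower.

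In the ventral 22 h list the share lower at 24 h was 70.5% at 50 to 100 kb, 88.5% at 100 to 200 kb and 25.8% in mostly unique windows. Its share at least 4-fold apart was 48.4% in mostly unique windows and 79.7% by GENCODE distance, and 93.0% were at least 3-fold apart. Its median was 10.3 RPKM at 24 h and 3.18 RPKM at 22 h in mostly unique windows, and 12.2 RPKM at 22 h at 50 to 100 kb. In the dorsal 22 h list 85.3% were at least 3-fold apart, and the 22 h median was 10.5 RPKM in mostly unique windows. In the ventral 26 h list the 26 h median was 3.60 RPKM at 50 to 100 kb.

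A further setting, chosen after seeing the data, kept only windows whose authors' p lies under 1e-05. Of 12 such ventral 26 h windows 0 (0%) were at least 4-fold apart by RPKM, with a 26 h median of 19.5 RPKM. The dorsal 22 h medians were then 3.28 RPKM at 24 h and 15.4 RPKM at 22 h, and 100% of 10 dorsal 26 h windows were lower at 24 h. Counting error limits folds that rest on 1 to 3 reads, and no spread between samples could be measured.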
